A study of Mus musculus with 4 samples.

Results

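The genes described here encode 9 carriers of drugs and other organic anions and cations in the mouse kidney: Slc22a6, Slc22a8, Slc22a7, Slc22a2, Slc47a1, Slc22a12, Slc22a13, Slco1a1 and Slco1a6. They were chosen by gene name from the 32285 genes listed in the files, with no threshold on a measured value but with earlier results of these data known. RNA was read in 4 Visium sections, a method that binds polyadenylated RNA to an array of barcoded spots and counts molecules by their unique molecular identifiers (UMIs). Of the sections, 2 came from normal kidneys and 2 from kidneys made ischemic on both sides for 30 min and collected 24 h later. All were sections of 10 µm from left kidneys of wild-type male C57BL/6J mice aged 7 to 8 weeks, and all 4 sections shared 1 slide. The normal kidneys are labelled as normal controls, and a sham operation is not mentioned for them. The labels do not tie sections to mice, so p-values measure the spread between sections, which may be technical.

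Cells of the proximal tubule take up organic anions and cations from blood across the basolateral membrane and release them into urine across the apical membrane. Organic anion transporters of the SLC22 family exchange their substrates for intracellular dicarboxylates, organic cations enter along the membrane potential and leave in exchange for protons, and urate is carried back from urine by further SLC22 members. The convoluted segments of the tubule lie in the cortex and its straight last segment lies in the outer stripe of the outer medulla, the region that suffers most after ischemia.

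The sections held 25957128 to 44528078 UMIs over 2401 to 2682 tissue spots each. The labels were checked with a pair of injury genes. Havcr1, which encodes kidney injury molecule 1, stood at 0.966 and 2.13 CPM (UMIs of the gene per 1e6 UMIs of the section) in normal sections and at 1408 and 1413 CPM in ischemic sections. Lcn2, which encodes lipocalin 2, stood at 4.92 and 7.95 CPM against 3056 and 3626 CPM. The defining genes of the proximal tubule were present in every section. Spots were assigned to zones with marker lists that held none of the 9 genes, and the cortex and the outer stripe were also compared on their own. Spots assigned to the inner medulla made up 5.66% and 9.28% of normal sections and 13.1% and 12.7% of ischemic sections. Most zone markers themselves change with ischemia. By the whole-section test below, 6 of 6 cortex and 4 of 4 outer stripe markers were called lower, also within both zones. So were 4 of 4 inner stripe and 5 of 6 pelvis markers over whole sections, while of 4 inner medulla markers 1 was lower and 1 higher. A different make-up of the sections and a different marker level thus cannot be told apart. The part of make-up in the whole-section values was not tested.

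All 9 transporters were lower in ischemic than in normal sections when whole sections were compared, by 1.45-fold for Slc22a6 to 54.6-fold for Slc22a7. Each passed the quasi-likelihood test of edgeR at 0.05 after Benjamini-Hochberg adjustment over 15305 genes, with adjusted p from 1.66e-07 to 0.00705. Of all genes tested, 29.7% were called lower and 31.0% higher, and the median change was 0.04 on the log2 scale over all genes and -2.40 over the 9 transporters. In the cortex 8 of 9 were called lower against 24.3% of 13499 genes called lower and 25.6% called higher. In the outer stripe 8 of 9 were called lower against 32.9% of 13329 genes called lower and 34.8% called higher. No transporter was called higher in any of these comparisons, and Slc22a6 was the gene not called in either zone. A spot mixes several cells, so fewer proximal tubule cells and less RNA per cell cannot be told apart.

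The scale of these changes depends on how libraries were brought to a common level. Levels below given without a unit or as TMM-scaled CPM are CPM scaled by edgeR's TMM factors, which assume that most genes do not change. Levels given as CPM alone are not scaled by them. Changes are on the log2 scale, ischemic minus normal. Changes and folds from edgeR also use TMM factors unless another fit is named, but each fit computed its own. The factors of zone levels were computed over all section and zone sums together, so folds do not follow exactly from the zone levels shown. With plain total counts the median of all genes rose by 0.27 in whole sections, by 0.21 in the cortex and by 0.37 in the outer stripe. The share of calls that were lower then went from 48.9% to 33.0%, from 48.7% to 31.7% and from 48.6% to 30.2%. The counts of transporters called lower were 9, 7 and 8 with total counts, the one lost being Slc22a12 in the cortex.

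**Figure D1:**
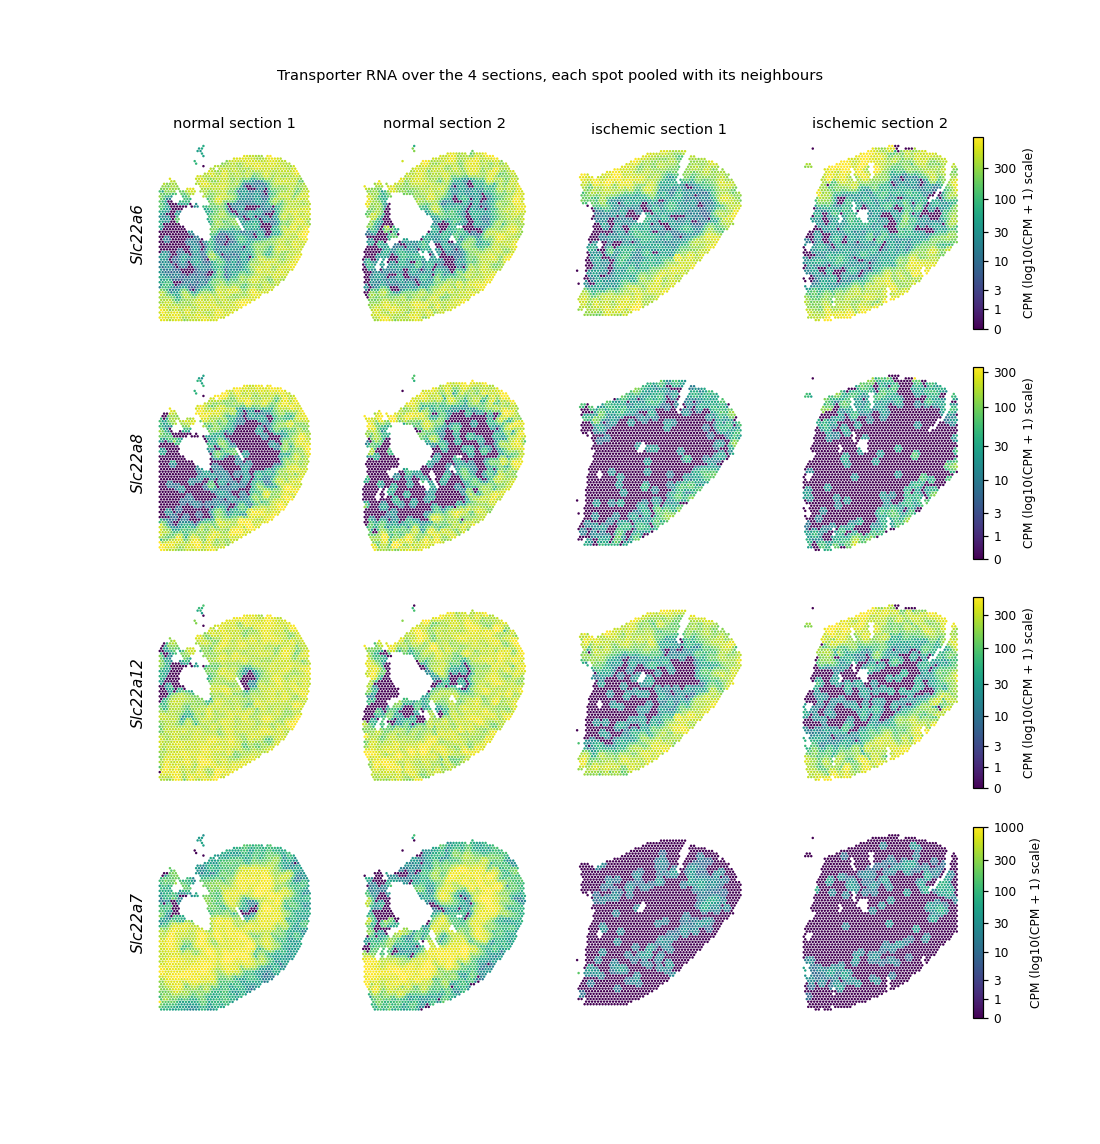
Maps of Slc22a6, Slc22a8, Slc22a12 and Slc22a7 RNA (rows) in the 4 sections (columns). Each point is a tissue spot at its place on the slide and its colour is the CPM pooled over the spot and its neighbours, on a log10(CPM + 1) scale that is shared within a row. Slc22a6 kept a bright outer rim in all 4 sections, the rim of Slc22a8 was darker in ischemic sections, Slc22a12 was dimmer in the inner zones and the inner band of Slc22a7 was nearly gone, with whole-section means of 402 and 7.37 TMM-scaled CPM.

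Slc22a6 encodes OAT1, the basolateral exchanger that takes up para-aminohippurate and many drugs, and it was the member that differed least between conditions. In the cortex its level was 605 and 500.2 in normal sections and 448 and 469 in ischemic sections. The groups did not overlap, but the ischemic values lay close below the lower normal section. The log2 change was -0.25 (SE 0.12, 95% interval -0.49 to -0.0048, edgeR adjusted p = 0.0840). In the outer stripe the level was 131 and 161 in normal sections and 116 and 134 in ischemic sections. Here the groups overlapped, and the change was -0.18 (95% interval -0.42 to 0.06, edgeR adjusted p = 0.165). With total counts this value turned to 0.17, and Slc22a6 was called lower in 3 of 14 other fits in either zone. Over whole sections Slc22a6 was lower by 0.53 (SE 0.13, edgeR adjusted p = 0.00705), a call that was lost without either ischemic section (adjusted p = 0.134 and 0.180). A fall of Slc22a6 within a zone was thus not called, and the intervals allow one of up to 0.49 on the log2 scale in the cortex.

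Slc22a8 encodes OAT3, which shares the basolateral membrane and many substrates with OAT1. Its cortical level was 252 and 194 in normal sections against 35.2 and 35.3 in ischemic sections. Both ischemic sections stood far below both normal sections, by 6.24-fold (log2 change -2.64, SE 0.12, edgeR adjusted p = 3.81e-12). In the outer stripe, where little Slc22a8 was read, the level fell from 25.4 and 31.5 to 5.68 and 6.52, a change of -2.18 (SE 0.16, edgeR adjusted p = 1.49e-09). The change of Slc22a8 was larger than that of Slc22a6 in both zones, with 95% intervals of -2.90 to -2.38 and -0.49 to -0.0048 in the cortex that do not overlap. The difference between both genes was not tested in a model of its own.

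Slc22a6 and Slc22a8 lie in tandem on the plus strand of chromosome 19 (GRCm38, GENCODE), Slc22a8 at 8591254 to 8611835 and Slc22a6 at 8618039 to 8628299, with 6203 bases and no annotated gene between them. Because neighbouring genes with overlapping substrates differed so much in their change, the 250 bases before each RefSeq transcript start (GRCm38.p6, plus strand) are shown, in lower case because they hold no match to the motif searched. The Slc22a8 window lies inside the GENCODE span of its gene, past the start of the span, so it does not precede every annotated start. Slc22a6 at chr19:8617746-8617995 is followed by Slc22a8 at chr19:8592932-8593181.
Slc22a6: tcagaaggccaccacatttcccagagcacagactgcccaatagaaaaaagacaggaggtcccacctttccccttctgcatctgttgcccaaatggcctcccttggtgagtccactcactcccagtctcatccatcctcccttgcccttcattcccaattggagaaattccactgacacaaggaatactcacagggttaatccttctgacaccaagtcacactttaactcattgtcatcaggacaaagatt
Slc22a8: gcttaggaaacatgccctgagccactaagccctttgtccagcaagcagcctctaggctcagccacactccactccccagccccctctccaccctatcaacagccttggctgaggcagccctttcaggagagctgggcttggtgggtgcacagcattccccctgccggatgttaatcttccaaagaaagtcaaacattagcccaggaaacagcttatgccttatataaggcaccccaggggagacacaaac

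The motif was CAAAGTNCA, a short sequence bound by hepatocyte nuclear factor 4, on either strand. RefSeq windows were at hand for 7 of the 9 genes, all but Slc22a7 and Slc47a1.

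Slc22a7 encodes OAT2, a carrier of organic anions that include cyclic nucleotides. It was a gene of the outer stripe and had the largest change of the 9 transporters. Its outer stripe level was 1064 and 857 in normal sections and 17.7 and 19.0 in ischemic sections, a 50.9-fold fall (log2 change -5.67, SE 0.15, edgeR adjusted p = 2.02e-15). In the cortex its level was 159 and 111 against 3.06 and 2.08, a fall of 50.3-fold (log2 change -5.65, SE 0.20, edgeR adjusted p = 1.01e-13). The cortical values in ischemic sections rest on 35 and 17 UMIs. Over whole sections the count went from 17590 and 9025 UMIs to 241 and 219 UMIs. In every fit tried, the change of Slc22a7 in either zone lay between -5.99 and -5.30. The gene is on the minus strand of chromosome 17 at 46432183 to 46438457 (GRCm38), and no other gene overlaps it.

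Slc22a2 encodes OCT2, the basolateral carrier through which organic cations such as metformin and creatinine enter the tubule cell. In the cortex its level was 115 and 98.3 in normal sections against 43.6 and 45.1 in ischemic ones, a fall of 2.37-fold (log2 change -1.24, SE 0.10, edgeR adjusted p = 1.39e-08). Its outer stripe level went from 217 and 183 to 20.1 and 23.3 (log2 change -3.17, SE 0.12, edgeR adjusted p = 5.99e-14). The groups did not overlap in either zone. Of the 50-base stretches of the Slc22a2 transcripts, 4.15% are not unique to it. Slc47a1 encodes MATE1, the apical exchanger that passes organic cations on into urine in return for protons. Its cortical level was 229 and 208 in normal sections and 128 and 129.9 in ischemic sections (log2 change -0.74, SE 0.10, edgeR adjusted p = 7.17e-06). Slc47a1 stood at 252 and 239 against 78.1 and 81.3 in the outer stripe (log2 change -1.58, SE 0.10, edgeR adjusted p = 7.48e-11). RNA of both cation carriers was thus lower in ischemic sections.

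Slc22a12 encodes URAT1, the apical exchanger that returns urate from urine. Its cortical level was 423 and 331 in normal sections against 272 and 298 in ischemic ones, a fall of 1.31-fold (log2 change -0.38, SE 0.12, edgeR adjusted p = 0.0117). That call was lost without either ischemic section (adjusted p = 0.261 and 0.104) and with total counts (-0.18, adjusted p = 0.104), and in 1 model over all zones (adjusted p = 0.200). The level of Slc22a12 in the outer stripe went from 458 and 392 to 81.2 and 95.5, a fall of 4.69-fold (log2 change -2.23, SE 0.11, edgeR adjusted p = 7.12e-12). Outer stripe spots of ischemic sections thus held far less Slc22a12 than those of normal sections, while cortical spots differed little. Slc22a12 lies on chromosome 19 at 6535845 to 6543032 on the minus strand and overlaps Nrxn2 on the other strand.

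Slc22a13 encodes OAT10, an apical carrier of nicotinate and urate, and like Slc22a7 it was a gene of the outer stripe. Its outer stripe level was 187 and 157 in normal sections and 20.7 and 18.9 in ischemic sections, an 8.45-fold fall (log2 change -3.08, SE 0.11, edgeR adjusted p = 6.06e-14). In the cortex it stood at 24.5 and 15.8 against 1.398 and 1.47, a fall of 14.0-fold (log2 change -3.80, SE 0.26, edgeR adjusted p = 8.16e-10) that rests on 16 and 12 UMIs in ischemic sections. The groups did not overlap in either zone. Of the 50-base stretches of its transcripts, 36.0% also occur in the pseudogene Slc22a13b-ps, and the gene overlaps Slc22a14 on the same strand of chromosome 9. Counts of Slc22a13 are therefore uncertain. How many of them this touches was not tested, since the share is one of transcript sequence and not of reads.

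Slco1a1 and Slco1a6 belong to the organic anion transporting polypeptides, which carry bile acids, steroid conjugates and other large anions. Slco1a1 stood at 173 and 123 in normal cortex against 13.7 and 13.8 in ischemic cortex, a fall of 10.6-fold (log2 change -3.41, SE 0.15, edgeR adjusted p = 1.39e-12). Its outer stripe level went from 72.8 and 77.1 to 9.62 and 11.05 (log2 change -2.82, SE 0.12, edgeR adjusted p = 3.20e-13). Slco1a6 changed less than its relative. Its level was 153 and 126 in normal cortex against 57.0 and 60.2 in ischemic cortex, a fall of 2.36-fold (log2 change -1.24, SE 0.11, edgeR adjusted p = 2.34e-08). Slco1a6 in the outer stripe went from 58.0 and 66.4 to 19.1 and 24.2 (log2 change -1.48, SE 0.12, edgeR adjusted p = 4.46e-09). Both genes lie on the minus strand of chromosome 6, Slco1a1 at 141907282 to 141946962 and Slco1a6 at 142085761 to 142208521. The carriers of this cluster resemble each other, and 1.64% of the 50-base stretches of Slco1a1 and 6.22% of those of Slco1a6 also occur in other genes, so some of their reads could be shared.

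As with the tandem pair above, the 250 bases before the RefSeq starts of both polypeptide genes (GRCm38.p6, minus strand) are shown, since relatives in 1 cluster changed to different degrees. Capitals mark a match to CAAAGTNCA. The Slco1a6 window lies inside the GENCODE span of its gene, downstream of the start of the span. Slco1a1 at chr6:141946963-141947212 is followed by Slco1a6 at chr6:142186150-142186399.
Slco1a1: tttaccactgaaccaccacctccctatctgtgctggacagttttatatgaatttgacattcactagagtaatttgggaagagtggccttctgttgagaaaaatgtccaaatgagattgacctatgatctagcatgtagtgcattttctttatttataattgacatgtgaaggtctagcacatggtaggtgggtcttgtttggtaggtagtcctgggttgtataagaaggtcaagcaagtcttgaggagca
Slco1a6: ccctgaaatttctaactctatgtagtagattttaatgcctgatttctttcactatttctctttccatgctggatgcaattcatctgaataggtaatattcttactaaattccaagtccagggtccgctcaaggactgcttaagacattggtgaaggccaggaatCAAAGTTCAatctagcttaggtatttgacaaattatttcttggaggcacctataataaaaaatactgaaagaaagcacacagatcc

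The motif begins 86 bases before the RefSeq start of Slco1a6 on the plus strand of the window and was in none of the other 6 windows. It is in 1.19% of 32851 windows of the same length, a match is a description and not a site in use, and its absence says only that these letters are not in those 250 bases. Hnf4a, which encodes the alpha form of hepatocyte nuclear factor 4, stood at 158 and 167 CPM in whole normal sections and at 93.4 and 91.7 CPM in whole ischemic ones.

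**Figure D2:**
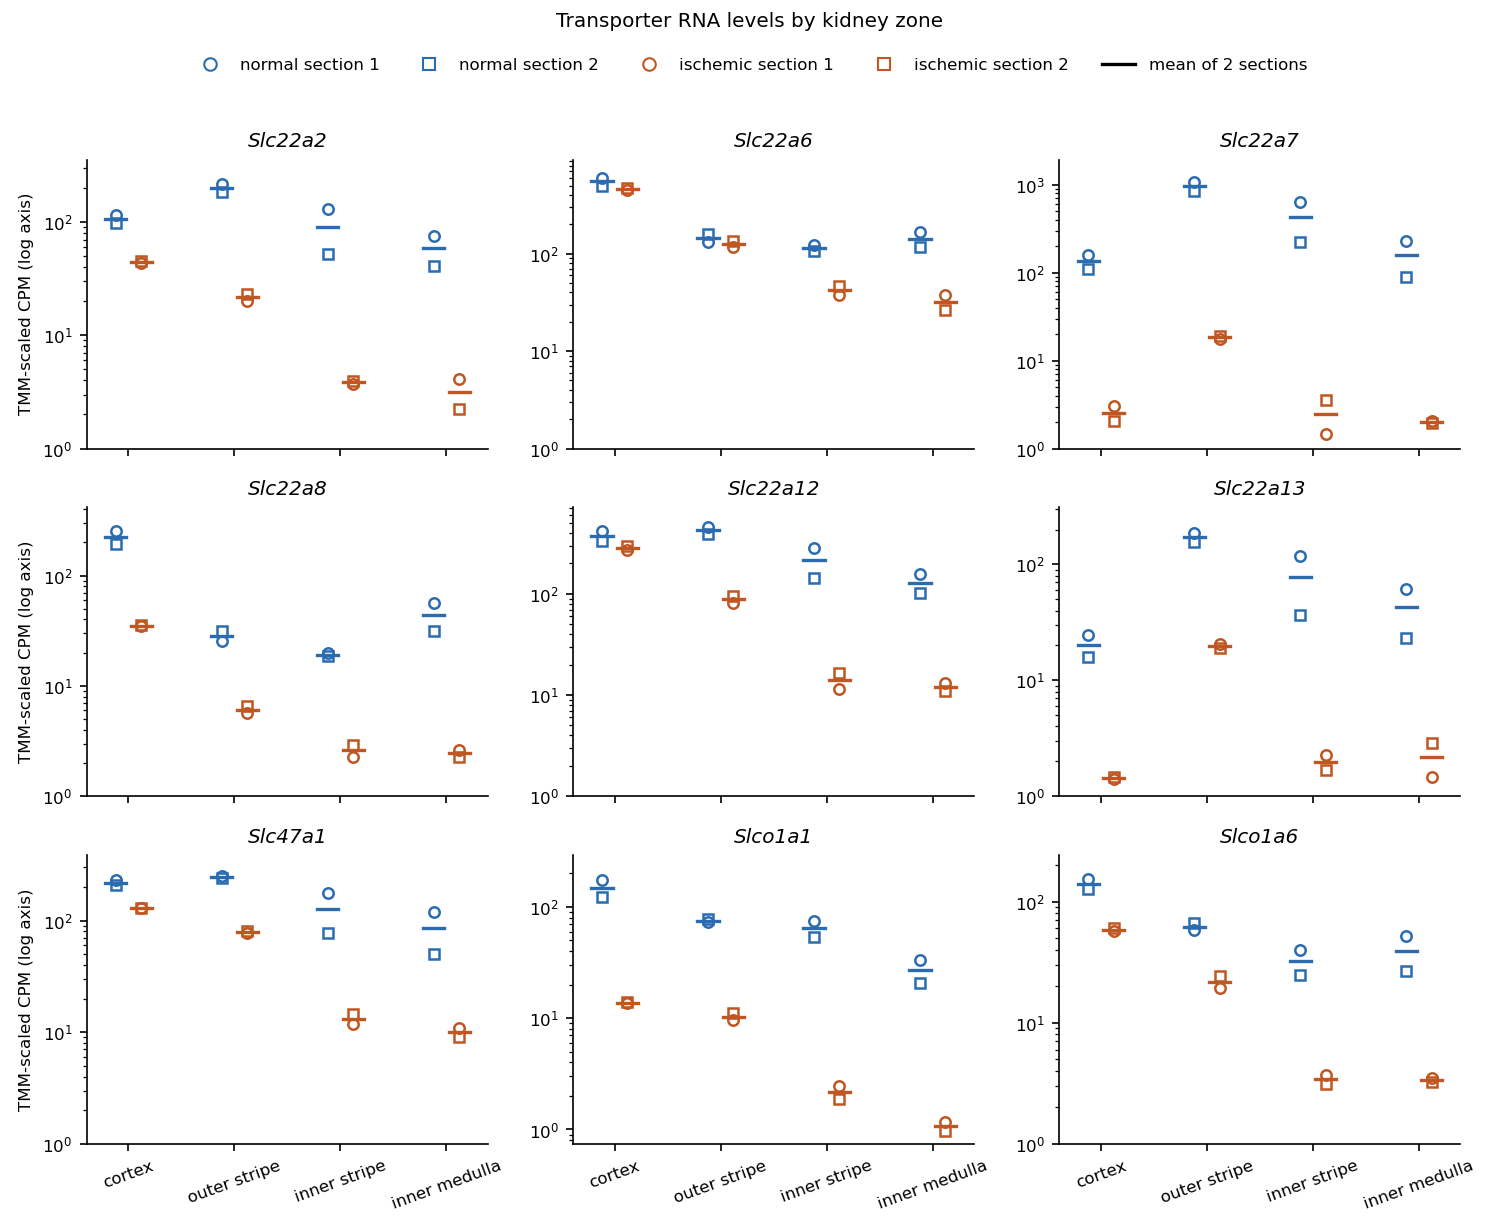
TMM-scaled CPM of each of the 9 transporters (log axis) in cortex, outer stripe, inner stripe and inner medulla zones. Circles are section 1, squares section 2, blue normal, orange ischemic, and a bar is the mean of 2 sections. Orange points lie below blue points in every zone and gene except Slc22a6 in the outer stripe, where 116 and 134 overlap 131 and 161.

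**Figure D3:**
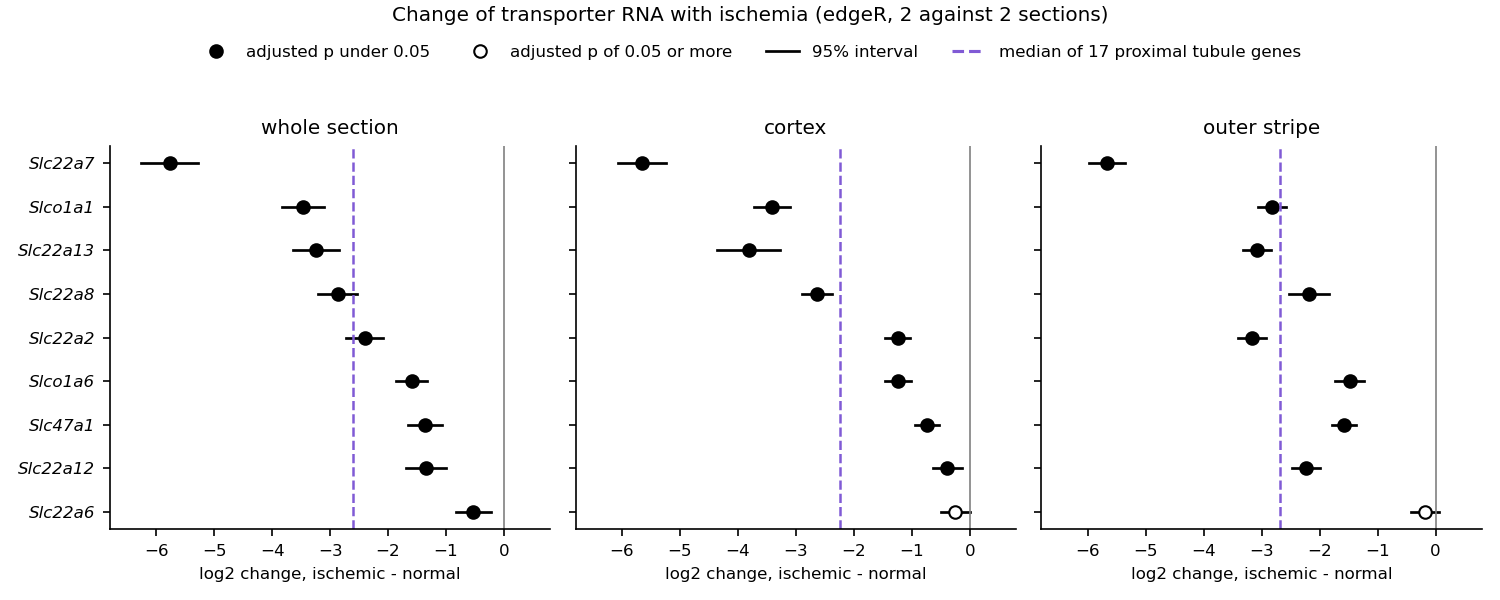
Log2 change of each transporter, ischemic minus normal, from edgeR in whole sections, cortex and outer stripe, with 95% intervals and the median of 17 proximal tubule genes as a dashed line. Some of these 17 genes are also zone markers. Open points are Slc22a6 at -0.25 and -0.18, the values that were not called. Slc22a7 lies below -5 in all 3 panels.

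The zones differed in which transporters they held. In normal sections Slc22a13 (log2 difference 3.06, SE 0.07), Slc22a7 (2.82, SE 0.05) and Slc22a2 (0.89, SE 0.05) were higher in the outer stripe than in the cortex. Slc22a12 and Slc47a1 were called higher there too, by only 0.16 and 0.15, and neither call held with DESeq2, with total counts, without normal section 2 or without the section as a block. Slc22a8 (-3.02, SE 0.08), Slc22a6 (-1.95, SE 0.07), Slco1a6 (-1.20, SE 0.07) and Slco1a1 (-1.01, SE 0.07) were lower in the outer stripe. The edgeR adjusted p was at most 0.00621 for all 9, where 17.3% of 14042 genes were called lower and 19.9% higher. In ischemic sections 7 were called lower in the outer stripe and 2 higher, against 25.2% and 24.9% of genes. Slc22a13 at 3.81 and Slc22a7 at 2.80 were the 2 that stayed higher there, Slc22a2 stood at -1.02, Slc22a12 at -1.68 and Slc47a1 at -0.68, and the other 4 lay between -2.52 for Slc22a8 and -0.41 for Slco1a1. The call of Slco1a1 in ischemic sections (adjusted p = 0.0431) was lost in 8 of 13 other fits. With total counts the median gene moved by -0.14 in normal sections, and 71.1% in place of 46.5% of calls were then lower.

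Whether the zone difference itself changed with ischemia was tested with an interaction term. Slc22a2 changed by -1.92 (SE 0.09, edgeR adjusted p = 8.54e-16), Slc22a12 by -1.83 (SE 0.07, adjusted p = 1.18e-18) and Slc47a1 by -0.83 (SE 0.07, adjusted p = 4.54e-11). These 3 genes, which were at least as high in the outer stripe as in the cortex of normal sections, were lower in the outer stripe of ischemic sections, and each was called in 13 of 13 other fits. For Slc22a13 the change was 0.75 (SE 0.27, adjusted p = 0.0277) and for Slco1a1 0.60 (SE 0.19, adjusted p = 0.0114), calls that held in 6 and 7 of 13 other fits. Slc22a6 (0.09, 95% interval -0.11 to 0.29), Slc22a7 (-0.02, 95% interval -0.42 to 0.39), Slc22a8 (0.49, 95% interval 0.08 to 0.91) and Slco1a6 (-0.23, 95% interval -0.48 to 0.03) were not called, although Slc22a8 was in 4 of 13 other fits and Slc22a6 in 2, once in each direction. Of all genes, 19.7% were called with a lower and 16.2% with a higher difference. Total counts raised the median of all genes by 0.15 in this comparison, and 36.4% in place of 54.8% of calls were then lower.

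**Figure D4:**
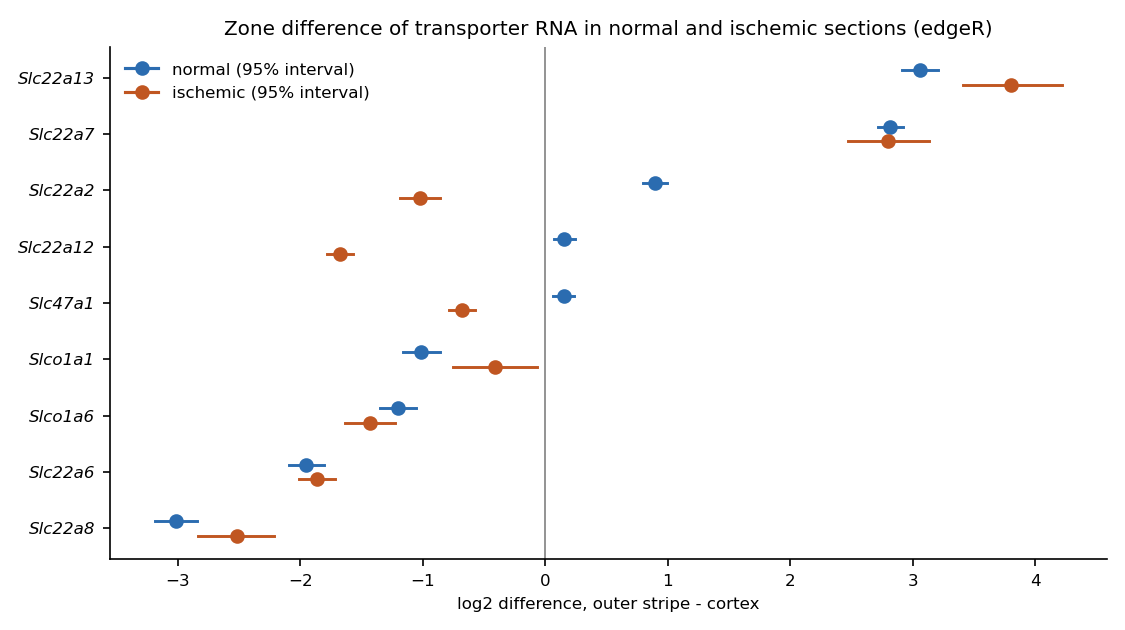
Log2 difference of outer stripe minus cortex for each transporter in normal (blue) and ischemic (orange) sections, with 95% intervals from edgeR. Slc22a2, Slc22a12 and Slc47a1 cross from the right of 0 to its left, from 0.89, 0.16 and 0.15 to -1.02, -1.68 and -0.68, while Slc22a7 stays at 2.82 and 2.80.

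The zones themselves were called from genes that change with ischemia, so position was also read without RNA, as the number of steps between a spot and the nearest edge of the tissue over the largest such number in the section. Slc22a12 stood at 278, 288 and 299.8 CPM at relative depths of 0 to 0.2, 0.2 to 0.4 and 0.4 to 0.6 in normal section 1 and at 231, 247 and 294 CPM in normal section 2. In ischemic sections 1 and 2 it stood at 202, 159 and 92.2 CPM and at 206, 121 and 79.4 CPM. Over these ranges its level rose with depth in both normal sections and fell with depth in both ischemic sections. Slc22a2 had the same course, from 86.2 to 136 CPM and from 75.9 to 107 CPM from the outermost to the innermost of these ranges in normal sections and from 31.5 to 21.4 CPM and from 33.8 to 16.1 CPM in ischemic sections. Slc22a6 fell over these ranges in all 4 sections, though only from 291 to 261 CPM in normal section 2, and in normal section 1 it stood higher again further in, at 137 CPM at 0.6 to 0.8 and 245 CPM at 0.8 to 1. The cavity of the pelvis also counts as an edge, so the deeper ranges of normal and ischemic sections do not hold the same tissue. The largest number of steps differed between sections too, so a range, also an outer one, need not span the same distance or tissue in each.

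No test was made in the pelvis, nor in the inner zones, because the inner stripe and inner medulla spots of normal sections lay among tubules of the neighbouring zones. The median relative depth of inner medulla spots was 0.042 and 0.077 in normal sections, below that of cortex spots at 0.167 and 0.231. It was 0.357 in both ischemic sections, so the inner medulla zones of both conditions need not hold the same tissue. Slc22a12 in the inner stripe was 216 ± 101 (SD, n = 2) in normal and 14.1 ± 3.52 in ischemic sections, and Slc22a7 was 434 ± 297 against 2.50 ± 1.495. Slc22a6 in the inner stripe was 115 ± 10.1 against 42.0 ± 5.71. In normal sections the means of Slc22a2, Slc22a12 and Slc47a1 ran from outer stripe over cortex, inner stripe and inner medulla to pelvis. Those of Slc22a7 and Slc22a13 ran from outer stripe over inner stripe, pelvis and inner medulla to cortex. Slc22a6 and Slco1a6 ran from cortex over outer stripe, inner medulla and inner stripe to pelvis, Slco1a1 had both inner zones the other way round, and Slc22a8 was second highest in the inner medulla. Cortex and outer stripe were neighbours that overlapped for Slc22a12 only. Inner stripe and inner medulla overlapped for Slc22a2, Slc22a6, Slc22a7, Slc22a12, Slc22a13, Slc47a1 and Slco1a6. For Slc22a7 and Slc22a13 every zone below the outer stripe overlapped the next. In ischemic sections the order of Slc22a2, Slc22a8, Slc22a12, Slc47a1 and Slco1a6 was cortex, outer stripe, pelvis, inner stripe and inner medulla. Slc22a6 and Slco1a1 differed from it in having the inner stripe before the pelvis. Slc22a7 and Slc22a13 again had the outer stripe first, followed by the pelvis, with the cortex next for Slc22a7 and last for Slc22a13. Cortex and outer stripe overlapped for none of the 9 in ischemic sections, and inner stripe and inner medulla overlapped for Slc22a2, Slc22a7, Slc22a8, Slc22a12, Slc22a13 and Slco1a6. The place of the pelvis in ischemic sections is uncertain. Its summed markers stood at 35.2 and 64.5 CPM there against 202 and 530 CPM in normal sections. Without pooling of neighbours, 28.3% and 28.5% of its spots in ischemic sections kept that zone, against 66.4% and 63.0% in normal sections.

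The patterns of the 9 genes over the 16 section and zone sums without the pelvis were compared by Pearson's r of log2(CPM + 1), as a description, since these sums share libraries and conditions. Slc22a12 and Slc47a1 were most alike (r = 0.98), followed by Slc22a7 and Slc22a13 (r = 0.96), and Slc22a6 and Slc22a13 were least alike (r = 0.04). Slc22a6 and Slc22a8 had r = 0.86 and Slco1a1 and Slco1a6 r = 0.89. Among 13814 genes, the 3 most like Slc22a6 were Slc2a2, Slc13a1 and Habp2 (r = 0.97 each), and those most like Slc22a8 were Igfbp4, Slc5a2 and Prodh (r = 0.98 to 0.99). Slc22a7 was closest to Mep1b, Cbs and Lipo3 (r = 0.98 each) and Slc22a13 to Serpina1d, Slc22a19 and Mettl7a2 (r = 0.99 each). For Slc22a2 the closest were Ggt1, Treh and Calml4 (r = 0.99 to 1.00), and for Slc47a1 they were Lrrc19, Tmem174 and Spink1 (r = 0.99 each). Slc22a12 was closest to Paqr9, Aldh2 and Slc17a1 (r = 0.99 to 1.00), the last an apical carrier of urate and phosphate. The nearest to Slco1a1 were Atp5l, Cndp2 and Rdh16f2 (r = 0.98 to 0.99), and Cfb and Dpyd were among the 3 nearest to Slco1a6 (r = 0.98 each).

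The other carriers of the pathway were followed in lists by the same whole-section test. The counts of this and the following lists stand beside 29.7% of all genes called lower and 31.0% higher in whole sections. These shares were 24.3% and 25.6% in the cortex and 32.9% and 34.8% in the outer stripe. Of 15 other SLC22 carriers 14 were tested, 10 were called lower and 1 higher, with a median log2 change of -2.48. In the cortex 9 of 13 were called lower and 3 higher (median -1.26), and in the outer stripe 8 of 12 were called lower and 3 higher (median -1.98). The largest falls were Slc22a26 (40.7-fold), Slc22a27 and Slc22a19 (18.0-fold), carriers of organic anions in rodents (edgeR adjusted p at most 0.000621). Slc22a27 was read as 21 and 13 UMIs in normal and 1 and 0 UMIs in ischemic sections, a ratio of 26.9 with a 95% counting interval of 4.50 to 1091. Slc22a15, a carrier of zwitterions, was the one called higher, by 2.98-fold (edgeR adjusted p = 0.000286). Of 9 other OATP and MATE carriers 7 were tested, 4 were called lower and 2 higher, with a median of -0.46. Cortical calls were 2 lower and 2 higher of 5 (median 0.17), or 1 lower and 3 higher with total counts (median 0.38), and outer stripe calls were 3 lower and 2 higher of 5 (median -0.40). Slco4c1, a basolateral carrier of cardiac glycosides and thyroid hormones, fell 15.8-fold (edgeR adjusted p = 1.03e-06) and Slco1a4 5.55-fold (edgeR adjusted p = 0.000506). Slc47a2, the relative of MATE1, was called lower on 27 UMIs in normal and 3 UMIs in ischemic sections, a ratio of 7.11 with a 95% counting interval of 2.19 to 36.6. Slco2a1, which carries prostaglandins, rose 3.85-fold and Slco4a1, a carrier of thyroid hormones, 3.55-fold (edgeR adjusted p = 8.32e-07 and 1.82e-05).

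The efflux pumps of the ABC family, which drive anions and drugs out of the cell with ATP, gave calls in both directions. So did all genes, with 29.7% called lower and 31.0% higher in whole sections and 32.9% and 34.8% in the outer stripe. Of 10 pumps, 2 were called lower and 5 higher in whole sections, 1 and 6 in the cortex and 4 and 5 in the outer stripe, with medians of 0.46, 0.50 and 0.73, and 1 pump called in the outer stripe changed sign with total counts. Abcb1b and Abcb1a, which encode P-glycoprotein, rose 3.87-fold and 3.13-fold (edgeR adjusted p = 1.67e-05 and 9.61e-05), and Abcc4, the apical pump MRP4, rose 2.20-fold (edgeR adjusted p = 1.39e-05). Abcc6 fell by 2.52 and Abcg2, a pump of urate and drugs, fell by 0.68 on the log2 scale (edgeR adjusted p = 3.81e-05 and 0.00326). Of 11 partners that supply dicarboxylates, carry urate or anchor apical carriers, 8 were called lower and 0 higher, with a median of -1.39, against 8 and 0 in the cortex (median -0.76) and 8 and 1 in the outer stripe (median -2.21). Slc5a8, a carrier of monocarboxylates, fell 11.7-fold, Pdzk1, the scaffold that binds URAT1, 4.47-fold and Slc13a2, an apical carrier of dicarboxylates, 4.31-fold (edgeR adjusted p at most 8.99e-06).

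Among 12 transcription factors and receptors known to act on such carriers, 11 were tested, 6 were called lower and 1 higher. Hnf4a fell 2.13-fold (edgeR adjusted p = 5.42e-05), while Nfe2l2, which encodes NRF2, rose 1.84-fold (edgeR adjusted p = 0.000136). In the cortex 4 were called lower and 3 higher, and with total counts only 1 was called lower there. In the outer stripe the counts were 6 and 2. Of all genes, 29.7% were called lower and 31.0% higher in whole sections. The shares were 24.3% and 25.6% in the cortex and 32.9% and 34.8% in the outer stripe. None of the called genes of these lists changed sign in whole sections with RLE factors or total counts.

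**Figure D5:**
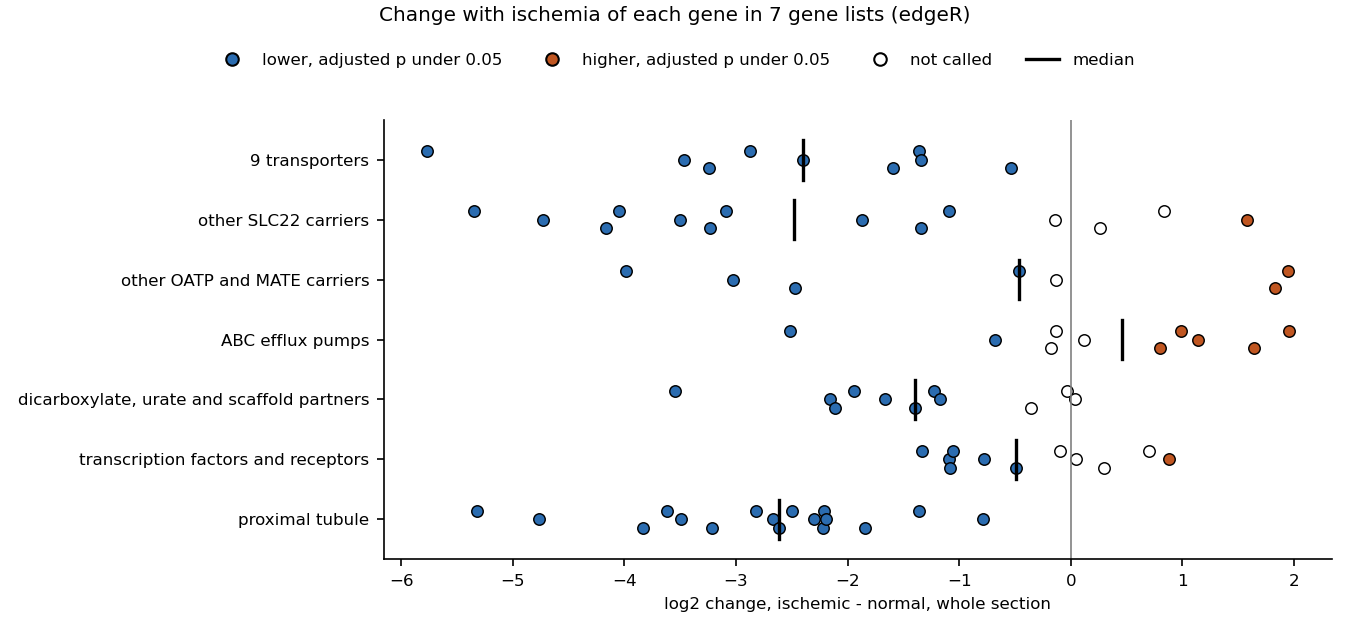
Log2 change in whole sections of each tested gene of the 9 transporters and 6 lists. Filled points were called lower (blue) or higher (orange) by edgeR, open points were not called, and a vertical bar is the median of the list. The 9 transporters lie from -5.77 to -0.53 and the proximal tubule genes from -5.32 to -0.79, while 5 of 10 ABC pumps lie right of 0 as orange points.

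The genes that define the proximal tubule were, like the transporters, lower in ischemic sections when whole sections were compared. All 17 genes of that list were called lower over whole sections, with a median log2 change of -2.61 and a range from -5.32 (Slc7a13) to -0.79 (Pck1), and their summed level went from 145616 and 104776 CPM to 25946 and 24351 CPM. The medians were -2.24 against -1.24 for the 9 transporters in the cortex and -2.68 against -2.23 in the outer stripe. Of that list, Slc34a1, Slc5a2, Slc5a12, Slc7a13 and Cyp7b1 are also zone markers, while none of the transporters is. Values of these markers within a zone thus depend in part on how spots were assigned. In the cortex, the outer stripe and whole sections 4 of the 9 transporters lay below the median of that list and 5 above it. Slc22a6 had a higher value than every gene of that list in the outer stripe and over whole sections, at -0.18 against a highest value of -1.98 (Slc5a2) and at -0.53 against -0.79 (Pck1), and below Pck1 at 0.14 in the cortex. The 7 proximal tubule injury genes were all called higher, with summed levels of 944 and 1539 CPM against 45058 and 47653 CPM. The 5 neutrophil genes were all called higher, from 1.41 and 2.17 to 177 and 178 CPM, and the 5 T cell genes all lower, from 13.8 and 28.1 to 2.32 and 2.50 CPM. The 4 hemoglobin genes of the blood list were called lower, from 8874 and 9027 to 763 and 1614 CPM, as were all 5 genes of the thick ascending limb and 3 of 4 of the distal convoluted tubule. Of the collecting duct list 4 of 7 genes were called lower, of the macrophage and monocyte list 4 of 6, of the podocyte list 2 of 5 with 1 higher and of the endothelial list 1 of 5 with 2 higher. With total counts 3, 2, 1 and 0 genes were called lower in the same order, and 0, 0, 1 and 3 higher. Summed levels overlapped for the collecting duct (754 and 1058 against 713 and 858 CPM) and for macrophages and monocytes (174 and 246 against 185 and 180 CPM). They were higher in ischemic sections for podocytes (66.3 and 93.0 against 104 and 110 CPM) and endothelium (252 and 321 against 381 and 423 CPM). No gene of these lists stood at 0 in all sections. The part of these cell types in the changes of the 9 transporters was not tested.

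Cortical spots of ischemic sections were also split at the median of their Havcr1 level, as a description with no test. Slc22a8 was lower in the spots with more Havcr1 in both sections (24.3 against 43.6 CPM and 23.5 against 45.0 CPM), Slc22a6 stood at 387 against 461 CPM and 381 against 515 CPM, and Slco1a1 was higher there (16.4 against 8.79 CPM and 16.6 against 8.70 CPM). Slc22a7 (4.55 against 0.897 CPM and 3.15 against 0.512 CPM) and Slc22a13 (2.13 against 0.359 CPM and 2.31 against 0.256 CPM) were also higher there and differed most, on at most 30 UMIs per group of spots. Slc22a12 stood at 229.7 against 287 CPM and 250.2 against 317 CPM, and Slco1a6 at 50.1 against 57.8 CPM and 50.2 against 64.7 CPM. Slc22a2 (40.4 against 41.8 CPM and 43.9 against 40.7 CPM) and Slc47a1 (122 against 119.5 CPM and 119.5 against 126 CPM) differed least and in opposite directions in the sections. The summed outer stripe markers were also higher in the spots with more Havcr1 (211 against 162 CPM and 199 against 160 CPM) and the summed cortex markers lower (646 against 1042 CPM and 602 against 1069 CPM).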

How the data were processed

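Visium RNA libraries of 4 mouse kidney sections, 2 normal and 2 ischemic, were used, grouped by the sample labels. The deposited values were raw UMI counts per gene and tissue spot, which the authors made with Space Ranger 1.3.0 and without normalization, and the submitters' processing notes name mm10. Array positions of spots were also deposited. Reads were aligned by that pipeline, and UMIs are counted once, so amplification copies do not enter. Intervals on counts cover counting error only.

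Counts were summed per section, or per section and zone, since spots are not replicates. Each spot, pooled with its up to 6 neighbours, received the zone with the highest mean log marker level, standardised within the section. The lists were Slc5a2, Slc5a12, Slc34a1, Slc12a3, Calb1 and Pvalb for cortex, Slc7a13, Cyp7b1, Serpina1f and Atp11a for outer stripe, Umod, Ptger3, Cldn10 and Slc12a1 for inner stripe, Slc14a2, Akr1b3, Aqp2 and Fxyd4 for inner medulla, and 6 urothelial genes for pelvis. Sums were tested with edgeR 4.0.16 in R 4.3.3 (filterByExpr, TMM factors, the quasi-likelihood test and Benjamini-Hochberg adjustment over all genes, threshold 0.05), with the section as a block in zone contrasts. All 9 transporters passed the filter in every comparison. The steps were run on simulated counts in which few genes changed, in both directions, so changes as wide as those of these data were not simulated. DESeq2 1.42.0, other scalings, no filter, sections left out, other zones and a replicate block were the alternatives. The 9 genes and all lists were chosen with earlier results of these data known. From the lists of carriers, partners and factors, up to 3 genes with the largest fall and 3 with the largest rise that were called and whose conditions did not overlap were named. The 3 genes most alike in pattern were named for each transporter. Slc7a13, Pck1 and Slc5a2 were named as the ends of a range after their values were seen. Some genes that these rules name are not reported here.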

Additional observations from a re-analysis of the deposited data

Results flagged for a closer look

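For 5 transporters the effect of ischemia differed between cortex and outer stripe by the interaction test of edgeR over 14042 genes. Of the 9 transporters, 3 were called lower and 2 higher, against 19.7% and 16.2% of all genes. The log2 change was -1.92 for Slc22a2, -1.83 for Slc22a12 and -0.83 for Slc47a1, more negative in the outer stripe. It was 0.75 for Slc22a13 and 0.60 for Slco1a1, more negative in the cortex. All 4 sections entered each test. The values of Slc22a2, Slc22a12 and Slc47a1 ranged from -2.05 to -1.36, from -1.96 to -1.36 and from -0.91 to -0.64 over the fits tried, and were called in each. Those of Slc22a13 and Slco1a1 ranged from 0.15 to 1.11 and from -0.02 to 0.85 and were not called in 7 and 6 of 13 other fits.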

How the results depend on the processing

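The counts of transporters called lower with ischemia, 9 over whole sections and 8 in each zone, stayed within 7 to 9 under all alternatives. Of 5 transporters higher in the outer stripe than in the cortex of normal sections, 3 remained with DESeq2, with total counts and without the section block. With zones from depth, 1 in place of 4 transporters was lower there. For the change of that difference with ischemia, 2 transporters were called higher, against 0 with DESeq2, without the section block and with zones from depth, and 1 with the transporters added to the zone lists. Leaving out 1 section gave 3 to 5 for the transporters higher in normal outer stripe, and 0 to 4 higher and 3 to 5 lower for the change of the difference, with the lone section of an arm assumed to vary like the others. Slc22a6 in the outer stripe turned to 0.17 with total counts. In the change of the difference, Slc22a7 turned to 0.13 with total counts and ranged from -0.27 to 0.39 with 1 section left out. Slc22a6 then ranged from -0.21 without normal section 1 (adjusted p = 0.0241) to 0.35 without normal section 2, and turned to -0.46 with zones from depth, where Slc22a8 stood at -0.39 and Slco1a1 at -0.018. The causes were not tested.

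Over all genes, total counts gave 2829 in place of 4542 genes called lower over whole sections, 2108 in place of 3278 in the cortex and 2772 in place of 4391 in the outer stripe, while DESeq2 called 2239 in place of 3452 higher in the cortex. For outer stripe against cortex in normal sections, 2430 genes were lower and 2792 higher, against 925 and 1248 with DESeq2, 4121 and 1676 with total counts, 711 and 904 with zones from depth, and 1689 higher without the section block. In ischemic sections 3540 and 3490 became 1848 and 1507 with DESeq2 and 669 and 275 with zones from depth. For the change, 2763 and 2279 became 1350 and 688 with DESeq2, 1756 and 1262 without the section block and 972 and 521 with zones from depth, and total counts called 3471 higher.

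With the replicate block, 9, 9 and 8 transporters were lower over whole sections, in the cortex and in the outer stripe, Slc22a6 in the cortex being called at -0.25 (adjusted p = 0.0492). It changed no other call of a transporter. Over all genes the block called 4892 lower and 5197 higher in whole sections, 3507 and 3757 in the cortex and 4484 and 4738 in the outer stripe. The deviations of same-numbered sections correlated at 0.16, 0.07 and 0.07, and no source says that the numbers pair sections.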
